A study of Mus musculus with 3 samples.

Results

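The 7SK RNA, other small structured RNAs and microRNA genes made up 556 of the 462392 crosslink positions listed for ZFP36L1 in mouse thymocytes. Members were all listed positions whose gene biotype was misc_RNA (355 positions in 60 genes) or miRNA (201 positions in 100 genes). That rule uses no measured value, but it was set with earlier results of these data known. Their counts summed to 2014, which was 0.247% of the 814493 counts of the whole list. The positions come from iCLIP (individual-nucleotide resolution crosslinking and immunoprecipitation), which finds the RNA base a protein touched, because reverse transcription tends to stop there. Total naive thymocytes came from C57BL/6JBabr mice with a double conditional knockout of Zfp36l1 and Zfp36l2 (DCKO, 1 library) and from WT mice (2 libraries of independent experiments). All received 300 mJ/cm2 of ultraviolet light, and RNA bound to ZFP36L1 was recovered with an antibody against Brf1/2. The antibody is named for 2 proteins, and whether all recovered RNA was bound to ZFP36L1 was not tested. The labels name neither the Cre driver nor the age or number of animals. Every position has 1 value, and no source used here says which of the 3 libraries were summed. DCKO and WT cells could therefore not be compared, the deletion could not be checked, and no value has a replicate error. The 95% Wilson intervals cover counting error only, and they treat counts or positions as independent, which neighbouring or stacked ones are not.

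Most of these RNAs are made by RNA polymerase III or cut from longer transcripts, and they work as folded RNAs rather than as messages. 7SK holds the elongation factor P-TEFb in an inactive complex, RNase P and RNase MRP RNAs are the RNA parts of enzymes that process transfer RNA and ribosomal RNA precursors, and Y RNAs bind the Ro60 protein. MicroRNAs are cut from hairpins by Drosha and Dicer, and bases 2 to 8 of the mature strand, the seed, pair with target messages. ZFP36L1 is known for binding AU-rich elements in 3′ untranslated regions and for promoting decay of the message.

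The positions with the highest counts lay in a few stretches of sequence, shown here 5′ to 3′ as DNA letters of the RNA strand. Capitals mark bases with a count of 10 or more in the 7SK, RNase P and RNase MRP stretches, and of 5 or more in the shorter Y RNA stretch. Each stretch runs from 10 nt before to 10 nt after such bases, and for Rmrp and Rpph1 the 2 stretches with the highest single bases are shown. The Rn7sk stretch is bases 228 to 305 of the RNA (chr9:78175329-78175406, minus strand, GRCm38.p6). The Rmrp stretches are bases 23 to 68 (chr4:43492991-43493036, minus strand) and 199 to 245 (chr4:43492814-43492860, minus strand). The Rpph1 stretches are bases 141 to 186 (chr14:50807582-50807627, minus strand) and 4 to 27 (chr14:50807741-50807764, minus strand), and the Rny3 stretch is bases 46 to 76 (chr6:47781669-47781699, plus strand).
Rn7sk: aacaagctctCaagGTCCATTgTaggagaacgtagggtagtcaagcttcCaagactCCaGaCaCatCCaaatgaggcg
Rmrp: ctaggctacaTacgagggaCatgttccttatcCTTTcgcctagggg
Rmrp: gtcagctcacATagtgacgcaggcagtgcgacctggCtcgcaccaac
Rpph1: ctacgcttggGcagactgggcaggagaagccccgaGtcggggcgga
Rpph1: ggaggaagctCaTCagcggggcca
Rny3: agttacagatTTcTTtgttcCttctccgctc

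Among microRNA genes, the strands printed next are mature forms that begin 1 or 2 bases after a listed position, with the seed in capitals. Sequences and positions are those of RefSeq on GRCm38.p6. The seeds are shared by miR-27a-3p and miR-27b-3p, by miR-15a-5p and miR-15b-5p, and by let-7g-5p and let-7i-5p.
mmu-miR-27a-3p: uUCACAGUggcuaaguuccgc
mmu-miR-27b-3p: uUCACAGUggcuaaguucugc
mmu-miR-15a-5p: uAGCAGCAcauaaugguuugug
mmu-miR-15b-5p: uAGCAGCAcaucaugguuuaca
mmu-let-7g-5p: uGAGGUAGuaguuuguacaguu
mmu-let-7i-5p: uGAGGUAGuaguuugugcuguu
mmu-miR-23a-3p: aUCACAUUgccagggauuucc
mmu-miR-25-3p: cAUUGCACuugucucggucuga
mmu-miR-451a: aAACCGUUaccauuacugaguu
mmu-miR-18a-5p: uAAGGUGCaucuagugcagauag
mmu-miR-20a-5p: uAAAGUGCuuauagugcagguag
mmu-miR-342-3p: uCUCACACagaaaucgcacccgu

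Counts were concentrated in 3 RNAs. Rn7sk, Rpph1 and Rmrp held 470, 393 and 377 counts, together 61.6% of the counts of all members (59.4 to 63.7) and 84.6% of those labelled misc_RNA (82.7 to 86.4). Per 100 nt of the whole RNA the counts were 142 for Rn7sk, 139 for Rmrp and 123 for Rpph1. That scale does not treat the 3 RNAs alike. In Rn7sk, 214 of 331 bases lay in sequence found 3 or more times in the genome and had no count. Rmrp had no such bases. Among misc_RNA genes the next was Rny3 with 47.1 counts per 100 nt, followed by the vault RNA gene Vaultrc5 with 13.99 and Rny1 with 10.7. Terc, the template RNA of telomerase, had 6 counts at 3 positions, or 1.42 per 100 nt. At the other end, 39 of the 60 misc_RNA genes and 69 of the 100 miRNA genes had a summed count of 1 or 2, and 34 and 77 genes had a single listed position. The median gene had a summed count of 2 in both biotypes. Counts follow the abundance of an RNA as well as its contact with the protein, and no input or RNA level is part of these files, so the levels describe recovered RNA.

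**Figure D1:**
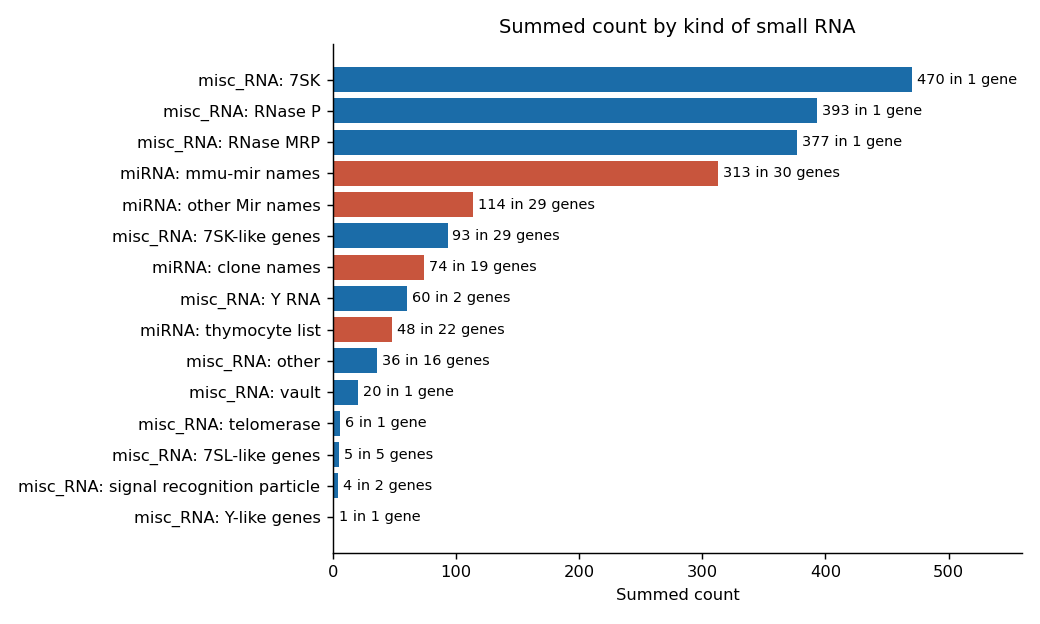
Summed count (horizontal axis) of each kind of misc_RNA gene (blue) and miRNA gene (red), with the number of genes beside each bar. The bars of 7SK, RNase P and RNase MRP, 470, 393 and 377 counts in 1 gene each, are longer than the bar of any group of several genes.

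The authors' own threshold, an FDR below 0.05, was passed by 196 of the 556 member positions, or 35.3% (31.4 to 39.3), against a background of 30.7% of all listed positions. Positions that passed are called sites here. By biotype, 134 of the misc_RNA positions (37.7%, 32.9 to 42.9) and 62 of the miRNA positions (30.8%, 24.9 to 37.5) were sites. The misc_RNA interval lay above the background and the miRNA interval included it. Rn7sk alone set that difference: without it 28.0% of misc_RNA positions (23.3 to 33.3) and 29.1% of all member positions (25.4 to 33.2) were sites, and both intervals included the background. Neighbouring positions of an RNA often share the same FDR and pass together. They are not separate trials, so all these intervals are too narrow. All positions labelled non-coding RNA, of which the members are a part, passed at 40.7% (39.7 to 41.7). A site need not have a high count of its own. All 48 Rn7sk positions were sites, including 4 with a count of 1, whose counts extended by 15 nt on either side were 64 to 226. Rpph1 positions with counts of 16 and 15 at bases 298 and 280 had extended counts of 22 and 35 and an FDR score above 1. Weighted by count, 62.0% of member counts were at sites (59.8 to 64.1), and 50.4% without Rn7sk.

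Rn7sk, the 7SK gene, is 331 nt long and lies on chromosome 9 (chr9:78175303-78175633, minus strand). All 470 of its counts fell between bases 226 and 299 from the 5′ end, at 48 of those 74 bases. Bases 1 to 225 and bases 300 to 331 had no listed position. The counts formed 2 blocks of similar size, bases 226 to 254 with 238 counts at 23 positions and bases 267 to 299 with 232 counts at 25 positions. In the 5′ block the highest counts were 34 at base 245, 27 at base 247 and 25 at base 243. In the 3′ block they were 33 at base 294 and 28 at base 295, followed by 21 at each of bases 287 and 291. C stood at 55.1% of the Rn7sk counts (50.6 to 59.5), although C makes up 25.7% of bases 226 to 299. With each position counted once, C stood at 37.5% (25.2 to 51.6), an interval that includes 25.7%. T stood at 22.3% of the counts, against 18.9% of those bases.

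Counts in Rn7sk were listed only downstream of the part that is repeated exactly elsewhere in the mouse genome. For each base of Rn7sk, the 30 nt that follow it were searched on both strands of the 22 assembled molecules. Over bases 1 to 214 those 30 nt occurred 3 to 14 times, with a median of 5, and the summed count was 0. The 110 bases whose next 30 nt occurred once lay between bases 217 and 331, and they held 467 of the 470 counts. The other 3 counts, at bases 298 and 299, were at bases with 2 copies. No source used here states how reads with several matches were treated. A lack of contact with the 5′ part of 7SK therefore cannot be told apart from a loss of reads that match several places. The last 32 bases had no count, with 1 copy of the next 30 nt, or 2 at the start. For nearly all of them those 30 nt run past the 3′ end of the RNA into flanking genomic sequence. Their copy number therefore does not describe reads of 7SK there, and the 3′ limit of the counts was not tested. Bases 217 to 225, with 1 copy each, had no count either.

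**Figure D2:**
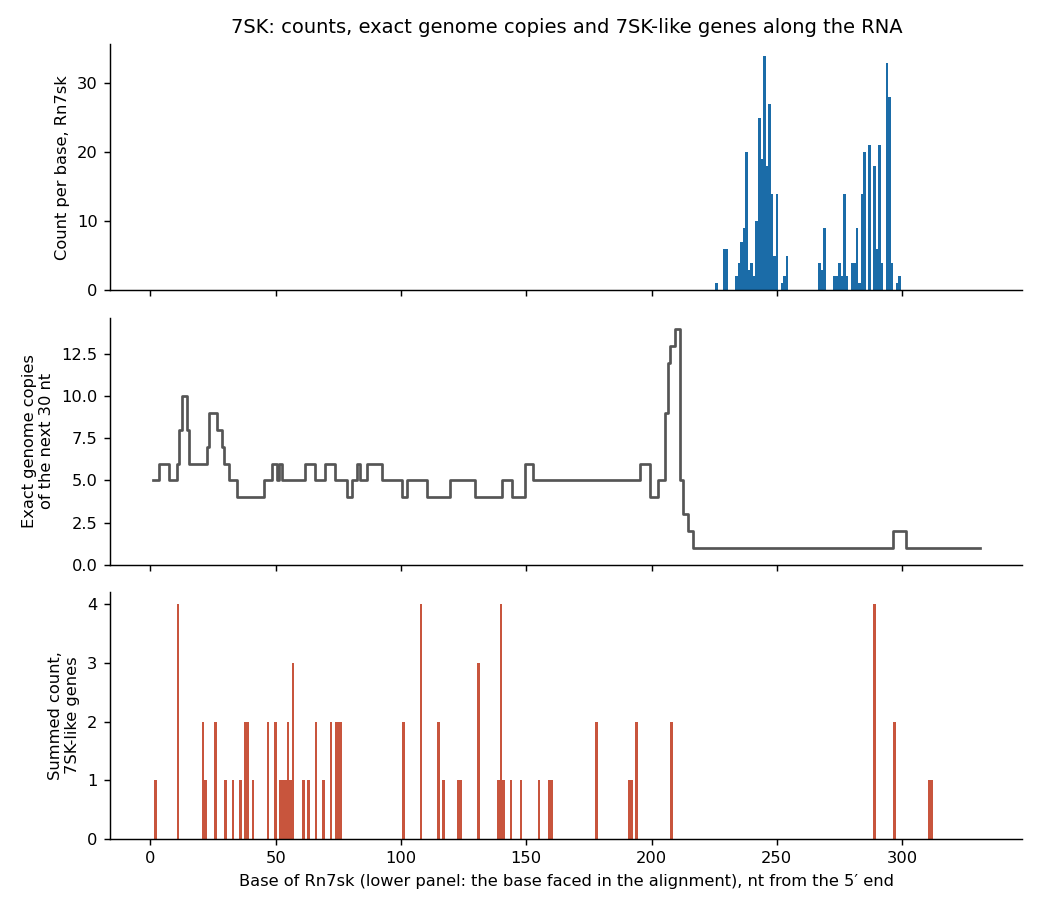
Count per base of Rn7sk (top), exact genome copies of the next 30 nt (middle) and summed count of 7SK-like genes at the Rn7sk base they align with (bottom), all against the base of Rn7sk from the 5′ end. Counts in Rn7sk begin at base 226, downstream of base 217, where copies drop to 1, whereas most counts of the 7SK-like genes, which rarely hold the 3′ part, face bases before 226.

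The misc_RNA label also covered 29 genes whose sequence was most like Rn7sk among the small RNAs compared, with 93 counts at 71 positions. Their highest count at any position was 4, against 34 in Rn7sk. Of the 66 positions that could be aligned to Rn7sk, 62 faced bases before 226 and 4 faced later bases. Most of these genes hold only the 5′ part of 7SK: their alignments ended at a median of base 237, and 1 of the 29, Gm23037, reached base 299. The split is thus largely given by which part they hold. The 4 positions at later bases, with 8 counts, were all in Gm23037, which lies within Zfp318 on chromosome 17 and was listed at 10 counts in all. For 58 of the 71 positions the next 30 nt occurred once in the genome. Gm22058, inside Atl1, had 14 counts at 11 positions, Gm23973 had 11 at 10, Gm24139, inside Gtf2ird2, had 5 at 4, and Gm26035 had 5 at 2. Gm23624 and Gm24146 had 4 counts each, all at positions with a count of 1, and Gm26023, Gm26274 and Gm25580 also had 4 each, with 3, 2 and 1 sites. Of the 71 positions, 10 (14.1%) in 5 of these genes were sites, against 30.7% of all listed positions. Whether such counts come from these copies or from mismatched reads of 7SK was not tested. Adding the 29 genes to Rn7sk brought its share of member counts to 28.0%, against 23.3% for Rn7sk alone (21.5 to 25.2).

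Rmrp, the RNA of RNase MRP, an enzyme of ribosomal RNA processing, is 271 nt long (chr4:43492788-43493058, minus strand) and has 1 exact copy of the next 30 nt at every base. No base of Rmrp is therefore repeated exactly elsewhere. Its 377 counts were spread over 73 positions, from base 2 to base 248. The highest were 31 at base 56 and 30 at base 57, in the run of T printed above, beside 14 at base 55 and 10 at base 58. A separate peak had 16 counts at base 210 and 14 at base 209. The highest base held 8.22% of the Rmrp counts, so most counts lay outside it. Other high bases were 33 with 18 counts and 42 with 15. Of the 5 blocks parted by gaps of more than 10 nt, bases 16 to 88 held 52.0% of the counts and bases 196 to 248 held 29.2%. T stood at 42.7% of Rmrp counts (37.8 to 47.7), against 17.0% of the RNA, and C at 33.4%, against 33.9%. With each position counted once, T stood at 24.7% (16.2 to 35.6), an interval that includes 17.0%. Of the 73 positions 31 were sites (42.5%), against 30.7% of all listed positions.

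Rpph1, the RNA of RNase P, the enzyme that trims the 5′ end of transfer RNA precursors, is 319 nt long (chr14:50807449-50807767, minus strand) and lies within the span of Ccnb1ip1. It had the most listed positions of any member gene, 96, or 30.1% of its bases. Of these, 27 were sites (28.1%), near the 30.7% of all listed positions. The highest count was 25 at base 176, followed by 18 at base 17, 16 at base 298 and 15 at each of bases 92 and 280. Of its 4 blocks, bases 6 to 51 held 27.5% of the counts and bases 176 to 301 held 50.6%. T stood at 30.3% of counts (25.9 to 35.0), against 15.99% of the RNA. Another 3 positions with 17 counts, labelled intergenic, lay within 50 nt before the annotated 5′ end of Rpph1. Rn7sk and the Y RNA genes had no listed position of another label within 50 nt, and Rmrp had 1, with a count of 1.

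**Figure D3:**
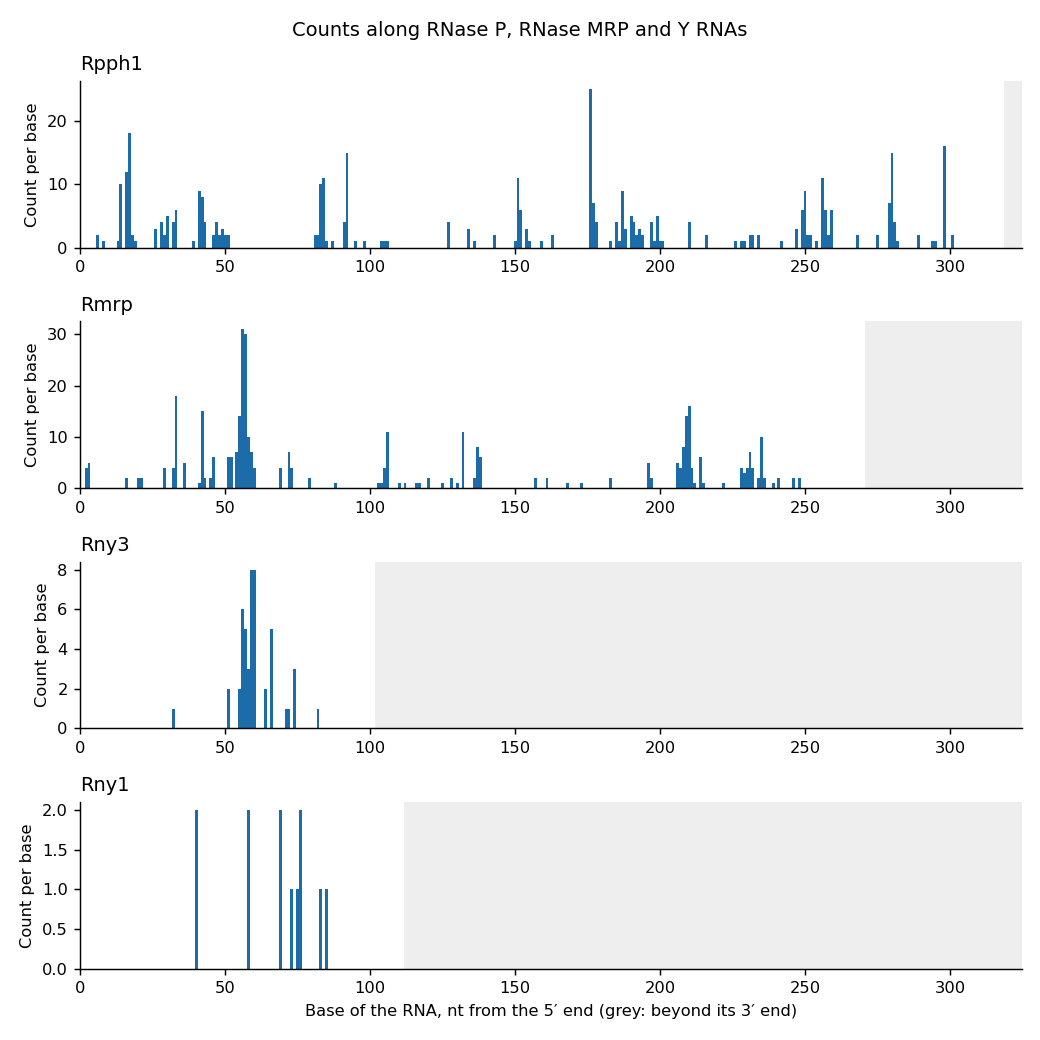
Count per base (vertical axis) along Rpph1, Rmrp, Rny3 and Rny1, from the 5′ end, with grey marking bases beyond the 3′ end of an RNA. Rmrp peaks at bases 56 and 57 with 31 and 30 counts, Rny3 at bases 59 and 60 with 8 each, and Rpph1 at several separate bases led by base 176 with 25.

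The Y RNAs, small RNAs bound by Ro60 and La, had 60 counts at 22 positions. Rny3 held 48 of them, and 47 lay between bases 51 and 82 of its 102 nt. Its highest counts were 8 at each of bases 59 and 60 and 6 at base 56, in the T-rich run printed above. T stood at 64.6% of Rny3 counts (50.4 to 76.6), against 35.3% of the RNA. With each position counted once, T stood at 42.9% (21.4 to 67.4), an interval that includes 35.3%. Of its 14 positions 12 were sites, against 30.7% of all listed positions. Rny1 had 12 counts at 8 positions, none above 2, and 8 of those counts lay between bases 69 and 85. Vaultrc5, the vault RNA, a component of the vault particle, had 20 counts at 9 positions, up to 4 each at bases 39, 76 and 94, and none was a site.

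7SL, the RNA of the signal recognition particle, was nearly absent from the list. Rn7s1, listed as Metazoa_SRP-ENSMUSG00000099021, had 1 position with a count of 2, at base 278, and Rn7s6, listed as Gm22179, had 1 position with a count of 2. Along the 300 nt of Rn7s1, the next 30 nt occurred 2 to 9 times at every base from 1 to 272, where the count was 0. They occurred once at the 28 bases from 273 to 300, where the 2 counts lay. There, however, the 30 nt run past the 3′ end of the RNA into flanking genomic sequence. Rn7s1 was 100% identical to Rn7s2 over all 300 nt, so no part of the RNA itself is unique. Rn7s2 had no listed position. Genes like 7SL (5) and like a Y RNA (1) had a count of 1 each. As for 7SK, a low count over repeated sequence cannot be told apart from a loss of reads.

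The remaining 16 misc_RNA genes, with 36 counts at 25 positions, were mostly named segments of long non-coding RNAs and not small RNAs. NEAT1_2, a piece of Neat1, the RNA that builds paraspeckles, had 8 counts at 5 positions. NEAT1_3 and a MALAT1 segment had 3 each. Xist_exon4, a piece of the RNA that silences an X chromosome, and MIAT_exon5_3 had 2 each. Of these 25 positions 2 were sites (8%), against 30.7% of all listed positions. Both were in SMAD5-AS1_4, where each had a count of 2.

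microRNA genes had 549 counts, and 1 gene held 31.1% of them (27.4 to 35.1). The reference set held only a piece of 28S ribosomal RNA, so whether mmu-mir-6236, mmu-mir-6240 and Mir5100 resemble ribosomal RNA, and whether their counts come from it, was not tested. The leading gene, mmu-mir-6236 (chromosome 9, plus strand), had 171 counts at 37 positions, or 139 per 100 nt of its whole hairpin. Its counts lay between bases 1 and 61 of the 123 nt hairpin and its highest count was 30 at base 19, with 22 at base 7. The mature strand in RefSeq starts at base 67, so none of the counts lay in it. A further 4 positions with 26 counts, labelled otherwise, lay within 50 nt upstream. mmu-mir-6240 had 50 counts at 12 positions, and here 43 counts lay at bases 25 to 32, around the start of the mature strand, with 19 at its first base. The stretches of both hairpins are shown for their highest bases, in capitals at a count of 8 or more for mmu-mir-6236 (chr9:110281287-110281333, plus strand) and of 5 or more for mmu-mir-6240 (chr5:114851962-114851984, plus strand).
mmu-mir-6236: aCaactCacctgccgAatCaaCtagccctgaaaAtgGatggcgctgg
mmu-mir-6240: accaaaaaacCCCaaagcatcgc

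Mir5100 had 31 counts at a single base, base 39 of its 64 nt hairpin, which is 3 nt after the first base of mature miR-5100. No other position of this gene was listed. mmu-mir-7058, inside Lat, which encodes an adaptor of T cell receptor signalling, had 35 counts at 12 positions. Of these, 34 lay in bases 45 to 67, a pyrimidine-rich stretch, with 7 at base 48 and 6 at base 65. Gm24049 had 21 counts at 8 positions, 13 of them at base 99 of 100, and Mir3064, inside Ddx5, had 16 at 10 positions with no site. Within 50 nt upstream of Mir3064, 27 positions with 79 counts carried another label, so its counts cannot be told apart from those of the Ddx5 transcript. The bases of Mir5100 and mmu-mir-7058 with the highest counts are in capitals, at a count of 10 or more for Mir5100 (chr11:60728691-60728711, plus strand) and of 3 or more for mmu-mir-7058 (chr7:126367971-126368010, minus strand).
Mir5100: gcagagttcgAatcccagcgg
mmu-mir-7058: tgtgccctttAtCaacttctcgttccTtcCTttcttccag

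The next miRNA genes by count were Mir23a (10 counts), Gm23388 (8), Mir27a and Mir5099 (7 each), Mir451 (6), and Gm24560, mmu-mir-7670, Gm25911, Gm26117 and Mir15a (5 each). Of the 100 miRNA genes, 65 lay within a protein-coding gene on the same strand and held 39.9% of the miRNA counts (35.9 to 44.0). For those, a count in the hairpin and a count in the host transcript cannot be told apart. Genes outside any host held 55.4% of the counts.

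A list of 56 names of microRNA genes known or likely in thymocytes was drawn up here from textbook knowledge. The list was made with earlier results of these data known. It includes a host gene, Mir142hg, and both Mir21 and Mir21a, which name the same gene. Of the 56 names, 22 had a listed position, with 48 counts in all. A position listed as Mir142 lay on the opposite strand, in Mir142b, and was left out. Summed counts of the list genes were low, with a median of 2 and a highest value of 5, in Mir15a. Only 1 of the 26 positions, that of Mir15a, was a site (3.85%), against the 30.7% background. The positions were nevertheless placed alike. Of the 21 list genes with a mature strand in RefSeq, 13 had a position at the base directly before the start of a mature strand, and these held 26 of 45 counts, or 57.8%. This base made up 1.99% of all bases of the 76 hairpins that carry an annotated mature strand. Of the 21, 15 had a position from 2 bases before that start to the start itself. The 76 hairpins have 128 annotated strands between them, and a position before a strand not annotated there could not be counted.

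Members of this group were Mir15a with 5 counts and Mir15b with 4, each at that 1 base. Both belong to the miR-15 and miR-16 family, known for lowering cell cycle and survival messages. Mir18, Mir20a, Mir181b-2, Mir342 and Mirlet7g had 2 counts each, likewise all at that base. Mir25 had 2 counts there and 2 on the first mature base. Mir106a, Mir19b-1, Mir20b, Mir30e and Mir92-1 had 1 count there, and Mir92-1 had another 2 bases later. Mir18, Mir19b-1, Mir20a and Mir92-1 belong to the Mir17hg cluster, a regulator of lymphocyte survival and growth. The other list members had no position at the base before an annotated strand, and most lay within 10 nt upstream of one. Mir16-1 had 1 count 2 bases before miR-16-5p and 2 counts 4 bases before miR-16-1-3p, Mirlet7i had 2 counts 2 bases before let-7i-5p, and Mir29a had 1 count 3 bases before its 3p strand. Mir21 had 2 counts 6 bases before its 5p strand, Mir16-2 and Mir181b-1 had 2 counts 9 bases before their 3p strands, and Mir223 had 1 count at the second mature base. The remaining list members had 3 counts each. Mir150, a microRNA of mature lymphocytes, had 3 counts at base 5 of its hairpin, 37 bases before miR-150-3p, the nearest annotated strand. Mir30d had 3 counts at 2 positions and no annotated strand. RefSeq as used here gave no 5p strand for either, so their distance from one was not measured.

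Outside the list, 7 of 55 genes with an annotated strand had a position at the base directly before a start, against 13 of 21 list genes. Those 7 positions held 5.29% of the counts of the 55 genes, which include the 171 counts of mmu-mir-6236. The 55 genes were mixed. Of 27 with names in Mir, 6 had such a position, with 16.2% of their counts. Of 28 with names in mmu-mir, 1 had, with 1.61% of their counts. The difference between list genes and other genes was not tested. Mir27a had 7 counts, all at the base before miR-27a-3p, and that position was a site. Mir23a, from the same cluster as Mir27a, had 4 counts at the base before miR-23a-3p, 1 on its first base, and 5 at 2 bases further in, all of them sites. Mir27b had 2 counts at the base before miR-27b-3p and 2 on its first base. Mir451, an erythroid microRNA that Dicer does not cut, had 4 counts 2 bases before miR-451a and 2 counts 1 base before it. Over all miRNA genes with an annotated strand, 20 of 158 positions lay at the base directly before a start, or 12.7%, in 20 of 76 genes. The annotated strands, with the base before them, held 208 of the 549 miRNA counts, or 37.9% (33.9 to 42.0), and 55.03% without mmu-mir-6236. In iCLIP the listed base is commonly taken as the one before the start of the cDNA. Under that reading, which the sources used here do not state, a cDNA of these positions would begin with the mature strand itself. Whether such cDNAs mark contact or the end of a mature microRNA was not tested.

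**Figure D4:**
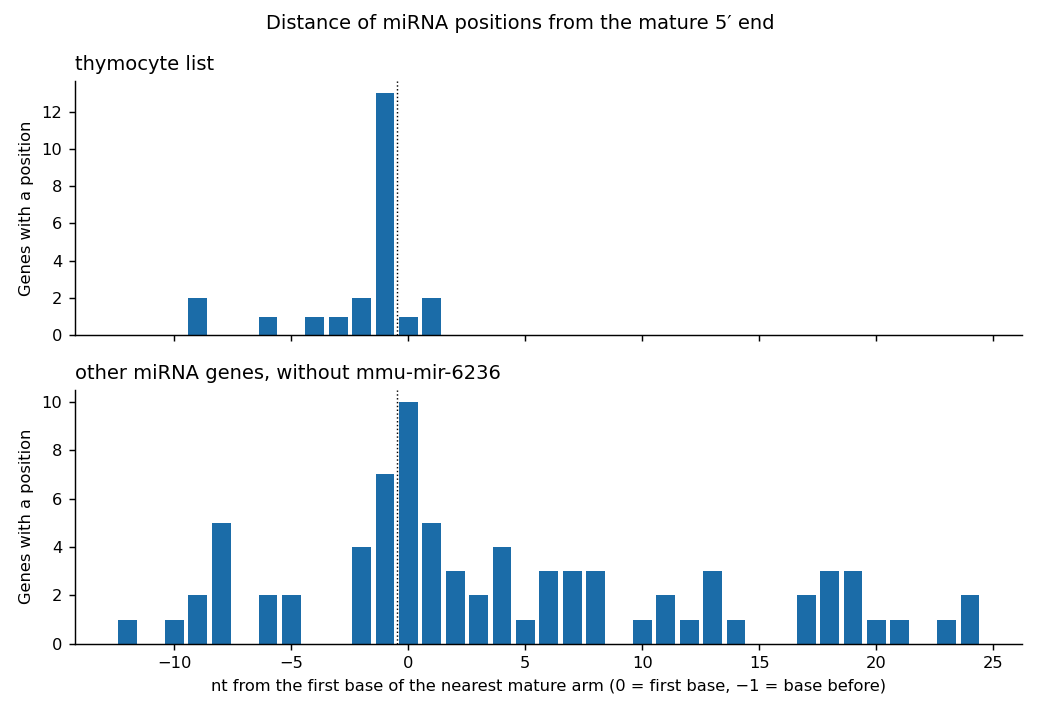
Number of miRNA genes with a listed position (vertical axis) at each distance from the start of the nearest mature strand, for list genes (top) and other genes without mmu-mir-6236 (bottom). In the list genes 13 have a position at −1, the base directly before the mature strand, the tallest bar of the panel.

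The AU-rich motif searched here was rare around these positions, and the A and T content of the windows was not measured. TATTTA, the core of the element the ZFP36 family binds, was searched on the strand of the RNA within 20 nt of each position. It was found at 2 of 556 positions, or 0.360% (0.0987 to 1.30), against 10.6% of all listed positions and 2.36% of those labelled non-coding RNA (2.07 to 2.69). The 2 were a count of 1 in EGOT and a count of 2 in Gm24605, and neither was a site. ATTTA, which TATTTA contains, was found at 4 positions (0.719%), against 14.7% of all listed positions. Neighbouring positions of 1 RNA share most of their window, so these are not 556 separate sequences, and the 3 RNAs with the most counts had no TATTTA within 20 nt of any position. A window without these letters says nothing of other ways of contact.

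The base at the listed position also differed from the rest of the list. C stood at 39.9% of member counts (37.8 to 42.1), T at 29.99% (28.0 to 32.0), G at 16.3% and A at 13.8%. In the whole list T stood at 56.3% of counts and C at 19.2%. Within positions labelled non-coding RNA T stood at 35.3% (34.9 to 35.7) and C at 28.4%. For misc_RNA the shares were 33.1% T (30.7 to 35.6) and 41.7% C, and for miRNA 21.7% T (18.4 to 25.3) and 35.2% C. By count, C exceeded T in Rn7sk and Rpph1 and over miRNA genes, whereas Rmrp and Rny3 had more counts at T than at C. With each position counted once, C still exceeded T in Rn7sk (18 and 11 of 48) and Rpph1 (41 and 20 of 96). It then did so in Rmrp too (27 and 18 of 73). C and T were equal in Rny3 (6 each of 14), and T exceeded C over miRNA positions (62 and 53 of 201).

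Placement and uniqueness were checked for every member. Of the 556 positions 552 lay inside a GENCODE small RNA gene on the same strand. Names were not required to match: 36 miRNA and 17 misc_RNA genes had another name or none in GENCODE, among them Mir142 above. The other 4 positions belonged to Gm24560 (3) and NBR2 (1) and lay in no such gene. The next 30 nt occurred once in the genome at 525 positions (94.4%, 92.2 to 96.0). These 30 nt are genomic sequence, longer than the mature microRNA strands printed above, so copies of a mature strand alone were not counted. By a looser measure, an alignment of at least 30 nt at 90% identity that spans the position and matches another annotated small RNA, 49.1% of member counts had a near copy (46.9 to 51.2), 63.5% for misc_RNA and 10.4% for miRNA. All Rn7sk counts and 332 of the 393 Rpph1 counts did, and none of the 377 Rmrp counts did. At 95% identity these were 204 Rn7sk counts and 58 Rpph1 counts. The exact measure gave another picture for Rpph1, where the next 30 nt occurred once at all 96 positions.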

How the data were processed

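The members and gene lists were chosen with earlier results of these data known. The labels and submitters' processing notes name Bowtie and the build GRCm38, with no version. The deposited list gives each position a whole-number score, headed as counts by the authors and negative on the minus strand. Its absolute value is the count used here. A deposited score extended by 15 nt is quoted for a few positions. The deposited p-value was not used, and the authors' FDR, a score that exceeds 1 at some positions, was used only to define sites (below 0.05). The list starts counting at 0, as seen at coding exon edges, and positions are given here from 1.

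No test between groups was possible on a pooled list, so the values are sums and shares. Genes were placed with GENCODE vM21 and mature microRNAs with RefSeq, on GRCm38.p6, using pysam 0.24.0. Exact copies of the next 30 nt were counted on 22 molecules, and that count was tested on simulated data. Near copies were found with blastn 2.17.0. Named genes are the 15 misc_RNA and 15 miRNA genes with the highest summed count, the 7SK, 7SL, Y, vault, RNase P and MRP genes, and thymocyte microRNAs with a position. Other named genes (lncRNA segments, Gm24605, EGOT, Mir27b, Gm25580, Gm26023, Gm26274) and the 7SK-like group were chosen after their values were seen. Alternatives were sites alone, equal weight per position, leaving out the highest gene, wider windows and stricter identity. No sequence is shown for genes on chromosome 18.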

Additional observations from a re-analysis of the deposited data

How the results depend on the processing

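No paired analysis was possible because the list has no library column. Which values moved beyond their counting interval follows, and the cause was not tested beyond what each setting changes by construction. The 7SK share of member counts, 23.3%, was 37.7% over sites, 41.0% over sites with an FDR below 0.01, 8.63% with each position counted once and 28.0% with the 7SK-like genes added. The share of member counts at sites, 62.0%, was 56.9% at an FDR below 0.01, 35.3% per position, 50.4% without Rn7sk and 29.1% per position without Rn7sk. The summed count of 2014 was 1248 over sites, 556 with 1 per position and 1238 over genes that GENCODE calls misc_RNA or miRNA, since it calls Rpph1 and Rmrp ribozymes. Counts inside the annotated RNA, 99.7%, were 99.3% per position. The share of miRNA counts in a mature strand or the base before it, 37.9%, was 49.4% within 10 nt and 55.03% without mmu-mir-6236. T at the position, 29.99%, was 32.3% without Rn7sk, and C was 39.9%. Windows with TATTTA, 0.360%, were 0% over sites and 1.62% within 50 nt. Counts with near copies, 49.1%, were 53.5% over sites, 45.3% per position and 17.9% at 95% identity. The alternatives with the 7SK-like genes, C, mmu-mir-6236, positions without Rn7sk, any label and single copies were added after seeing the data. Most genes have 1 or 2 counts, so their order is not resolved at this depth.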
